A study of Homo sapiens with 6 samples.

Results

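The genes described here are 34 components of the NRF2 antioxidant response and its metabolic surroundings, taken by gene symbol from the 26255 symbols measured in each library. They cover the transcription factor NRF2 (gene NFE2L2) and its inhibitor KEAP1, 5 aldo-keto reductases including AKR1C1, AKR1C2 and AKR1C3, 6 genes of glutathione synthesis and use, 4 thioredoxin system genes, 4 enzymes of the pentose phosphate pathway and NADPH supply, 3 genes of heme and iron handling, 7 detoxification genes and 3 export pumps. The list was drawn up with earlier results of these same libraries in view. Its calls below are therefore descriptions and not independent evidence. The cells were BxPC-3, a line established from a human pancreatic adenocarcinoma, and each of 3 groups had 2 RNA-seq libraries. The parent group received no treatment, the NC group received a negative control (labelled NC-1) and the miR-4711-5p group received the microRNA duplex, with the treated cells read 36 h after transfection. All 3 groups were the same cell line, and nothing in the labels says whether the 2 libraries of a group came from separate cultures, so a p-value measures only the spread between these libraries, which may be technical.

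NRF2 is a transcription factor that KEAP1 holds in the cytoplasm and delivers for degradation in resting cells. Electrophiles and oxidants modify cysteines of KEAP1, NRF2 then accumulates, pairs with small MAF proteins and binds antioxidant response elements beside genes for glutathione synthesis, thioredoxin reduction, NADPH supply, iron storage and detoxification. The AKR1C enzymes reduce steroid hormones, prostaglandins and reactive carbonyls with NADPH, and they are among the genes known to follow NRF2 activity in human epithelial cells. The question here was how the RNA of this system differed between untreated cells, cells given the negative control and cells given miR-4711-5p. No group was transfected without a duplex. In a difference from parent, the duplex and the transfection itself therefore cannot be told apart.

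Every one of the 34 symbols was listed in all 6 libraries. The values are FPKM, the fragments assigned to a gene scaled by the length of its exons and the size of the library, so levels of different genes can be compared per length. The mean FPKM of the 34 genes in parent ran from 0.465 for ABCC2 to 3283 for FTL, with a median of 56.0, against a median of 11.8 over the 12040 genes that entered the test, and 30 of the 34 lay above that median. FTL ranked 7th, FTH1 26th, PRDX1 91st, TXN 120th and AKR1C1 355th of all symbols. Together the 34 genes held 1.75% and 1.74% of the FPKM of the parent libraries, 1.96% and 2.04% with NC and 1.47% and 1.53% with miR-4711-5p. The groups did not overlap in that share, with NC highest and miR-4711-5p lowest. The ferritin genes FTL and FTH1 alone made up 54.1% to 58.3% of the sum in every library. The other 32 genes held 0.775% and 0.80% in parent, 0.861% and 0.880% with NC and 0.614% and 0.636% with miR-4711-5p, in the same order and again without overlap.

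Total FPKM ran from 493145 to 550772 per library and was lowest in the miR-4711-5p libraries, and 16597 to 17305 symbols lay above 0. The number of reads is unknown. From the steps between the lowest values, depth was estimated relative to the first parent library. It was 0.873 in the second parent library, 0.751 and 0.857 with NC and 1.08 and 1.21 with miR-4711-5p, so it differed by group. The estimate rested on only 29.0% to 36.8% of the low genes compared. The precision of low genes is limited, and no counting interval can be given. All 6 epithelial markers were at 1 FPKM or more, with a summed level of 5787 to 6163 in parent, 5165 to 5447 with NC and 5179 to 5234 with miR-4711-5p. Single markers did not move alike. The ratio of miR-4711-5p to parent was 0.553 for KRT19, 0.497 for MUC1 and 1.14 for KRT18. It was 0.94 for KRT7 and KRT8 and 1.08 for EPCAM. Of the markers of other cells, 0 of 5 for blood cells, 0 of 5 for hepatocytes and 0 of 4 for endocrine cells reached 1 FPKM in their mean. COL1A1 of 6 fibroblast markers and PRSS1 of 5 acinar markers did. The summed fibroblast level was 1.31 to 1.88 FPKM in parent, 2.14 to 2.47 with NC and 1.92 to 2.24 with miR-4711-5p, and the acinar sum was 0.730 to 1.57, 2.62 to 2.73 and 3.18 to 5.10. The part of such cells in the results was not tested. In bulk RNA, fewer cells of a kind and less RNA per cell cannot be told apart.

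The test was limma on log2(FPKM + 1) for genes whose mean over the libraries reached 1 FPKM, in a fit over all 12040 such genes and all 3 groups. A gene with a Benjamini-Hochberg adjusted p under 0.05 is called here. This scale compresses the changes of low genes, so ratios of mean FPKM are given beside them. Of the 34 genes 33 were tested. ABCC2, a drug efflux pump of apical membranes, stayed under the limit at 0.470 and 0.459 FPKM in parent, 0.519 and 0.388 with NC and 0.522 and 0.475 with miR-4711-5p. The 3 comparisons share libraries in pairs, since each group enters 2 of them, so their values are set side by side and are not separate pieces of evidence. An exact two-sided permutation test of 2 libraries against 2 cannot go below p = 0.333, so the p-values here borrow the spread of the other genes through limma.

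With miR-4711-5p against parent, 24 of the 33 genes were called lower, 2 higher and 7 not. In this comparison 24.7% of all genes tested were called lower and 18.7% higher. The median log2 change of the 33 genes was -0.34, and that of all genes was -0.01. Against NC, 24 were lower, 3 higher and 6 not called, with 21.2% of all genes lower and 18.4% higher, and the medians were -0.39 and 0.00. NC itself differed from parent: 13 of the 33 genes were called higher and 4 lower, beside 12.1% and 15.1% of all genes, and the medians were 0.04 and -0.01. These shares are background only, because the list was chosen with the contrasts known. The smaller counts rested on single libraries. Leaving out each library in turn gave 1 to 2 higher calls against parent (1 without the first miR-4711-5p or the second parent library). Against NC it gave 1 to 3 (1 without the first NC or either miR-4711-5p library). In NC against parent it gave 1 to 3 lower calls, with 1 without the first parent library, 2 without either NC or either miR-4711-5p library, and 3 without the second parent library.

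The share of higher and lower calls depended on the scale of the libraries. As deposited, 43.1% of all calls of miR-4711-5p against parent were higher, 46.5% of those against NC and 44.4% of those of NC against parent. With every library rescaled to the same total FPKM, these became 69.3%, 58.4% and 69.9%, and the median log2 change of all genes against parent moved to 0.11. On that scale 20 of the 33 genes were lower and 3 higher against parent (14.8% and 33.3% of all genes). Against NC 24 were lower and 3 higher (17.3% and 24.3% of all genes). For NC against parent 14 were higher and 2 lower (19.3% and 8.31% of all genes). The median of the list was then -0.20 against parent and -0.34 against NC, and relative to the median of all genes it was -0.31 and -0.39.

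**Figure D1:**
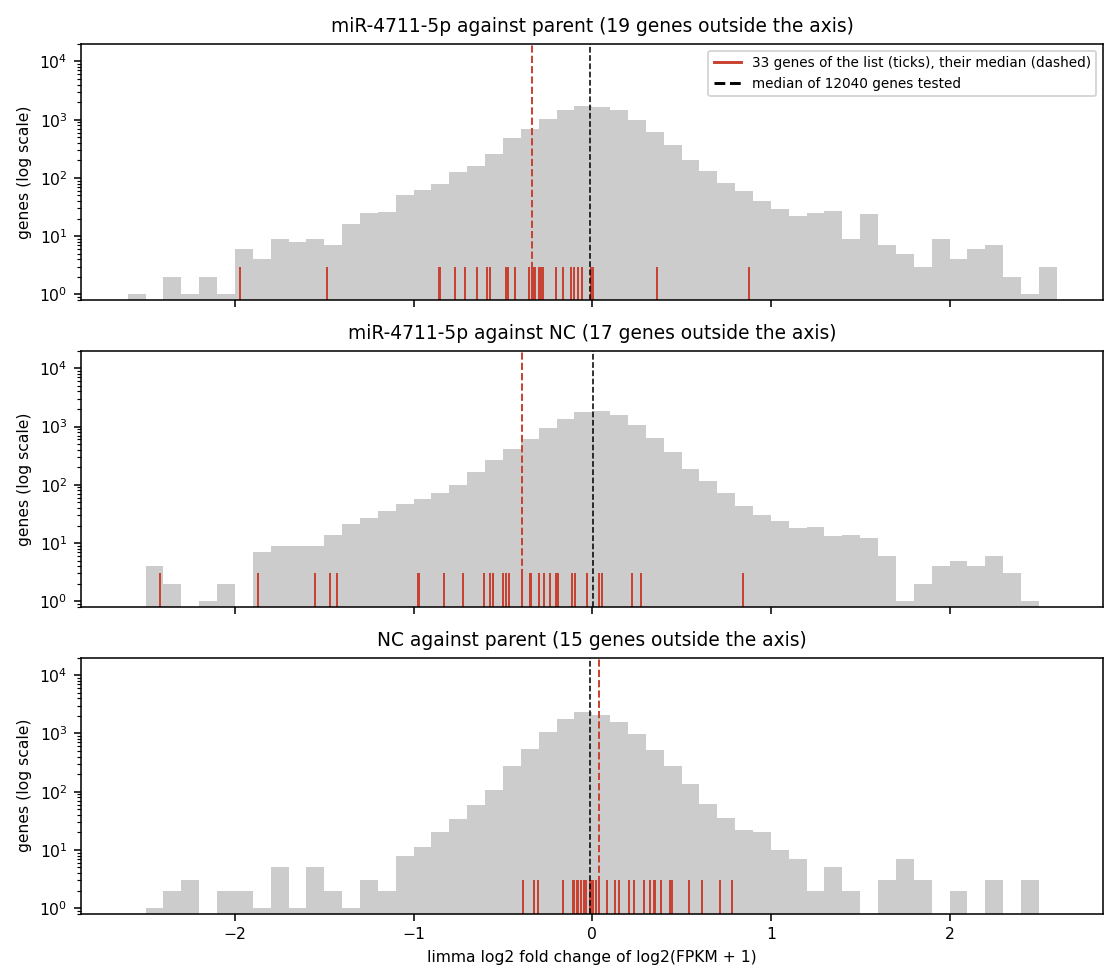
Histogram of the limma log2 fold change of all 12040 genes tested (grey, number of genes on a log axis) for each of the 3 comparisons, with the 33 tested genes of the list as red ticks, their median as a red dashed line and the median of all genes as a black dashed line. The red median lies at -0.34 and -0.39 in the upper panels and at 0.04 in the lowest panel, where many of the ticks lie above 0.

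By the direction of their calls most of the genes fell into the first patterns below, and the rest were spread over smaller ones. In the first, 10 genes were lower with miR-4711-5p against both references and higher in NC than in parent: AKR1C1, AKR1C2, AKR1C3, AKR1B10, SLC7A11, GCLC, FTL, NQO1, PIR and ABCC3. The share of all genes tested with this pattern was not counted. The same NC libraries enter both of its calls that involve NC, so high values there favour both. Another 11 were lower against both references with no call between NC and parent: AKR1B1, GPX2, MGST1, TXN, PGD, TALDO1, TKT, FTH1, CBR3, EPHX1 and ABCC1. CBR1 was the 1 gene lower in all 3 comparisons. With it, 22 of the 33 genes (66.7%) were lower against both references, beside 15.4% of all genes tested. HMOX1 was higher against both references, and NFE2L2, GCLM, GSR and UGDH, 4 genes in all, were called in no comparison.

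**Figure D2:**
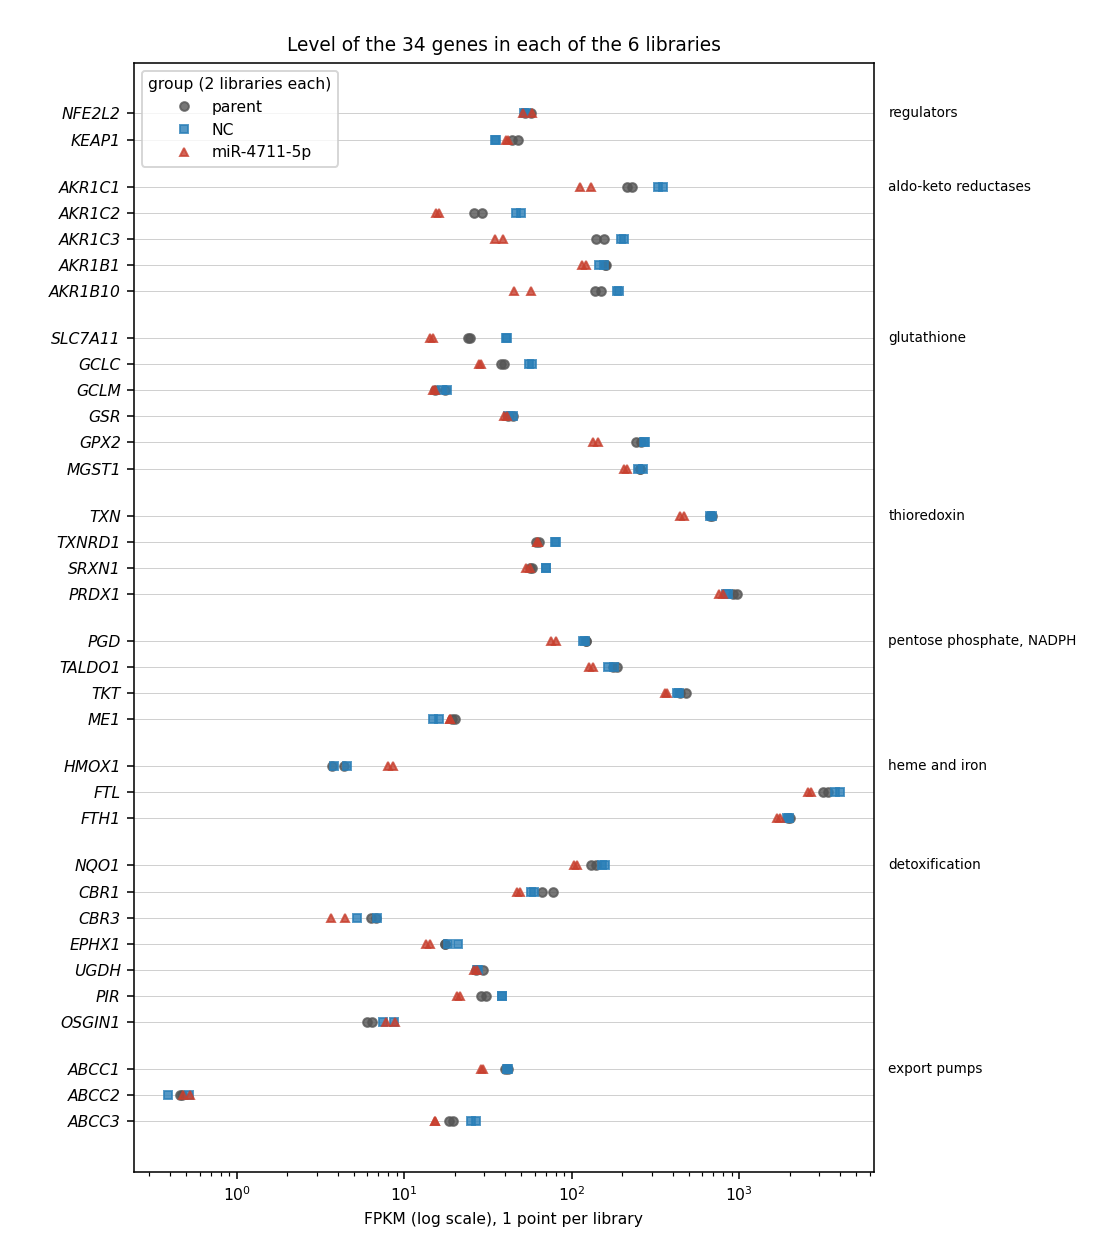
FPKM of the 34 genes in each of the 6 libraries on a log axis, grouped by role, with grey circles for parent, blue squares for NC and red triangles for miR-4711-5p (2 libraries each). The red triangles lie left of the other points for the aldo-keto reductases and the glutathione genes, though only narrowly for GCLM and GSR. They lie right of the other points for HMOX1, and on both sides of them for NFE2L2.

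The sequences below show what the microRNA could pair with in these RNAs. The mature strand (RefSeq, GRCh38.p14, chr1:59733269-59733291, minus strand) has 23 bases, and its seed, bases 2 to 8, is in capitals.
hsa-miR-4711-5p: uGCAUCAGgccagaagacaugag
An 8mer site in an RNA reads CTGATGCA, a 7mer-m8 site CTGATGC and a 7mer-A1 site TGATGCA, and they were searched in each gene's longest 3′ UTR on the transcribed strand (GENCODE annotation, GRCh37, the build of the files). Of the 33 tested genes, 6 (18.2%) held such a site, beside 18.4% of the 11180 tested genes with an annotated 3′ UTR. An 8mer was present in 2 of the 33 (6.06%) and in 3.61% of the tested genes. Sites of the 6 genes follow, with the site in capitals and flanking bases in lower case. SLC7A11 held 3 sites, of which the 7mer-m8 is shown.
GCLC 8mer, chr6:53362894-53362901, minus strand: ttaaatttgCTGATGCAggaattaag
CBR1 8mer, chr21:37445382-37445389, plus strand: tgatttcctCTGATGCAggagaggaa
SLC7A11 7mer-m8, chr4:139085634-139085640, minus strand: ttcctagcaCTGATGCctgcacaag
PGD 7mer-m8, chr1:10480198-10480204, plus strand: tacatcagaCTGATGCtctttctcc
ABCC1 7mer-m8, chr16:16236411-16236417, plus strand: atttagttaCTGATGCtcttccagg
FTL 7mer-A1, chr19:49470130-49470136, plus strand: aaagcttttTGATGCA
These 6 genes were all called lower against both parent and NC, as were 16 of the 27 tested genes of the list without a site (59.3%). Over all tested genes with an annotated 3′ UTR, 28.0% of those with a site and 13.7% of those without were lower against both. The call of CBR1 against NC was lost without any 1 of the 4 libraries compared. AKR1C3 (3′ UTR of 183 bases), AKR1B10 (323), AKR1C1 (5541) and AKR1C2 (2221) had no such letters. A match is only a run of letters, and its absence says nothing about other ways of pairing.

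The antioxidant response element was searched as its core, TGACNNNGC, on both strands of the RefSeq promoter windows (250 bases before to 50 after a start, GRCh38.p14), which held 25 of the 34 genes. AKR1B10, SLC7A11, GSR, PRDX1, HMOX1, FTH1, CBR3, ABCC1 and ABCC3 had no window. The core was present in a window of 10 of the 25 genes (40%), beside 19.7% of the tested genes with a window. Counted by window, it was in 11 of 34 (32.4%), beside 14.8% of 13055. The 10 genes were KEAP1, GCLM, GPX2, MGST1, TXNRD1, PGD, ME1, CBR1, EPHX1 and PIR, and the windows of AKR1C1, AKR1C2 and AKR1C3 had none. Absence from such a window says nothing about elements outside it. The stricter run TGACTCAGC is one of the forms of the core and also holds the letters of an AP-1 site. In the RefSeq windows it was present in 2 of the 25 genes (8%), beside 0.747% of the tested genes with a window. It was also searched from 1000 bases before to 50 after the start of the canonical transcript on GRCh37, a window added after the data were seen. In that window the core was present in 18 of the 34 genes (52.9%), beside 35.9% of 11154 tested genes. The stricter run was present in 5 of the 34 (14.7%) and in 1.33% of the tested genes. These 5 are shown with the run in capitals and 10 bases on either side, read on the strand that carries the run.
NQO1, chr16:69760900-69760928, 455 bases before the start: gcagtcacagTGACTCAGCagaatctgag
ME1, chr6:84140889-84140917, 137 bases before the start: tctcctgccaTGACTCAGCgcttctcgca
TALDO1, chr11:746501-746529, 953 bases before the start: acccagggacTGACTCAGCataagcggac
ABCC1, chr16:16042926-16042954, 537 bases before the start: tccttctgtgTGACTCAGCtttggagtca
PIR, chrX:15511412-15511440, just after the start: agcctcaccgTGACTCAGCgcttcgcggc
The genes with this run did not move alike: NQO1, TALDO1, ABCC1 and PIR were lower with miR-4711-5p against both references, whereas ME1 was not called against parent and was higher against NC.

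Of the regulators, NFE2L2 was called in no comparison and KEAP1 was lowest with NC. NFE2L2 (chr2:178083395-178257484, minus strand, GRCh37) was at 52.5 and 57.3 FPKM in parent, 51.5 and 53.4 with NC, and 51.15 and 58.1 with miR-4711-5p. The groups overlapped in every comparison, the ratios were 0.995 against parent and 1.04 against NC, and the adjusted p-values by limma were 0.934 and 0.576. NRF2 is controlled largely through the stability of its protein, which was not measured. KEAP1 (chr19:10596801-10614234, minus strand) was at 47.9 and 44.2 FPKM in parent, 35.1 and 34.8 with NC and 40.5 and 41.5 with miR-4711-5p. Its lowest level was in the NC libraries, at 0.759 of parent (log2 change -0.39 ± 0.05 SE, adjusted p = 0.00348). With miR-4711-5p it lay between, at 0.891 of parent (adjusted p = 0.0426) and 1.17 of NC (adjusted p = 0.0136). The call against parent was lost under most alternatives run, including without any 1 library other than the second parent library (adjusted p 0.0603 to 0.187) and on equal totals (log2 change -0.03, adjusted p = 0.696). The call against NC was lost without any 1 of the 4 libraries compared (adjusted p 0.0510 to 0.0857).

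Of 13 other regulators and partners of NRF2, 12 were tested. Against parent 5 were higher and 1 lower, beside 18.7% and 24.7% of all genes. SQSTM1, which binds KEAP1, the small MAF genes MAFF and MAFK, the NRF2 relative NFE2L3 and the kinase GSK3B were higher. DPP3, also a KEAP1 binder, was lower. Against NC 5 were higher and 1 lower (18.4% and 21.2% of all genes). In NC against parent 6 were higher and 1 lower (12.1% and 15.1% of all genes). MAFF was at 8.80 and 8.99 FPKM in parent, 12.0 and 13.3 with NC and 15.7 and 14.7 with miR-4711-5p. SQSTM1 was at 242 and 236, 316 and 322, and 348 and 355 in the same order. Both rose already with NC and lay higher still with miR-4711-5p (adjusted p 0.0257 and 0.0251 against NC). BACH1, the repressor that competes with NRF2 for its elements, was 1.52-fold higher in NC than in parent (adjusted p by limma = 0.00141). With miR-4711-5p it was at 1.13 of parent (adjusted p = 0.0564) and 0.740 of NC (adjusted p = 0.00145). These genes were named after their values were seen.

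Among the 33 tested genes, the aldo-keto reductases AKR1C3 and AKR1B10 had the lowest ratios of miR-4711-5p to parent and to NC. AKR1C3, which reduces androgen precursors and prostaglandins, was at 139.9 and 155 FPKM in parent, 197 and 205 with NC and 35.0 and 38.7 with miR-4711-5p. It was 4.01-fold lower than in parent (log2 change -1.97 ± 0.07 SE, adjusted p = 3.95e-06) and 5.46-fold lower than in NC (-2.42 ± 0.07, adjusted p = 3.18e-06). AKR1C1, which inactivates progesterone, was at 212 and 228 FPKM in parent, 327 and 348 with NC, and 113 and 130.2 with miR-4711-5p. The 3 groups were fully apart, with NC at the top and miR-4711-5p at the bottom, at 0.552 of parent (adjusted p = 0.000166) and 0.360 of NC (adjusted p = 1.69e-05). AKR1C2, a close copy of AKR1C1 that inactivates dihydrotestosterone, had the same order at a lower level. Its values were 26.05 and 29.0 FPKM in parent, 49.4 and 46.5 with NC and 15.4 and 16.0 with miR-4711-5p, which is 0.570 of parent and 0.327 of NC (adjusted p = 0.000135 and 8.56e-06).

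In NC all 3 AKR1C genes were higher than in parent: 1.53-fold for AKR1C1, 1.74-fold for AKR1C2 and 1.36-fold for AKR1C3 (adjusted p = 0.00252, 0.000792 and 0.00511). Of all genes tested, 12.1% were called higher in this comparison. The sum of the 3 genes was 395 ± 24.1 FPKM in parent (SD, n = 2 libraries, as throughout), 586 ± 18.5 with NC and 174 ± 15.5 after miR-4711-5p, so the fall with miR-4711-5p was 2.27-fold from parent and 3.37-fold from NC. The composition also differed. AKR1C3 made up 37.01% and 37.68% of the sum in parent, 34.4% and 34.2% with NC, and 21.5% and 20.9% with miR-4711-5p. The ratio of AKR1C3 to AKR1C1 within a library, which does not depend on library scale, was 0.660 and 0.682 in parent, 0.603 and 0.589 with NC and 0.311 and 0.297 with miR-4711-5p. The AKR1C3 decrease was therefore larger than that of AKR1C1 in both miR-4711-5p libraries.

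The genes lie next to each other on chromosome 10 (GRCh37): AKR1C1 at chr10:5005445-5025475, AKR1C2 at chr10:5029967-5060223 on the opposite strand, and AKR1C3 at chr10:5077546-5149878. AKR1C4, the liver form further along, was listed at 0 in all 6 libraries, and AKR1E2 before the cluster was at 2.84 and 3.02 FPKM in parent, 4.28 and 3.05 with NC, and 3.34 and 3.10 with miR-4711-5p, without a call in any comparison. The coding sequences of AKR1C1 and AKR1C2 were identical at 98.0% of positions, AKR1C1 and AKR1C3 at 91.5% and AKR1C2 and AKR1C3 at 91.0%. Of all runs of 75 bases, the length of a read, 16.8% of AKR1C1, 36.0% of AKR1C2 and 12.3% of AKR1C3 also occurred in a transcript of another gene. How the authors' counting divided such reads is not given in the sources used here. The split between AKR1C1 and AKR1C2 is therefore uncertain. In the annotation used here their canonical transcripts differ in length (6543 and 3215 bases, with 1186 for AKR1C3), so the sum in FPKM may depend on it too. The lengths behind the deposited FPKM are not given.

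AKR1B10, which reduces retinal and lipid aldehydes, was at 138 and 149.8 FPKM in parent, 185 and 191 with NC and 45.2 and 56.9 with miR-4711-5p. The miR-4711-5p libraries were 2.82-fold lower than parent (log2 change -1.49 ± 0.10 SE, adjusted p = 4.63e-05) and 3.68-fold lower than NC (-1.87 ± 0.10, adjusted p = 2e-05). NC was 1.31-fold above parent (adjusted p = 0.0296), a call that was lost without any 1 of the 4 libraries compared (adjusted p 0.0760 to 0.160). AKR1B1, the aldose reductase of the polyol pathway and the neighbour of AKR1B10 on chromosome 7, moved less: 159 ± 1.26 FPKM in parent, 150.0 ± 7.50 with NC and 118 ± 4.31 with miR-4711-5p, at 0.738 of parent and 0.785 of NC (adjusted p = 0.000557 and 0.00175). AKR1B15, another gene of that cluster and not on the list, had 2.32 and 2.37 FPKM in parent, 2.53 and 2.37 with NC and 0.903 and 0.945 with miR-4711-5p, at 0.394 of parent and 0.377 of NC (adjusted p = 0.000753 and 0.000683). Of 75-base runs of AKR1B10, 7.31% also occurred in another transcript, AKR1B15 among them. The coding sequences of AKR1B10 and AKR1B15 were identical at 86.2% of positions. The share of AKR1B15 runs found in AKR1B10 was not computed. How far the low values of AKR1B15 depend on reads of AKR1B10 was not tested.

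**Figure D3:**
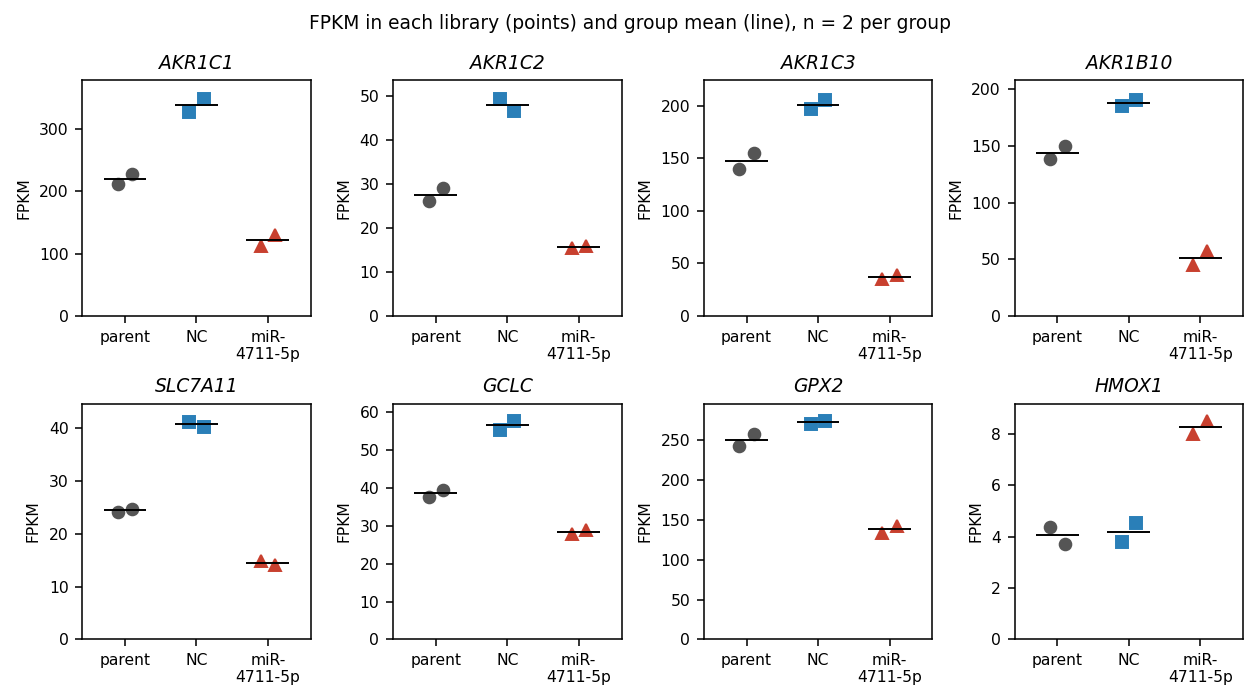
FPKM in each library (points) with the mean of the 2 libraries of a group (line) for AKR1C1, AKR1C2, AKR1C3, AKR1B10, SLC7A11, GCLC, GPX2 and HMOX1, each on its own axis from 0. In the first 6 panels NC stands highest and miR-4711-5p lowest, in GPX2 only the miR-4711-5p points stand apart by a wide margin, and in HMOX1 the miR-4711-5p points at 8.01 and 8.505 FPKM lie above all others.

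In glutathione synthesis, SLC7A11 and GCLC followed the order of the AKR1C genes. SLC7A11, the cystine importer, was at 24.1 and 24.7 FPKM in parent, 41.1 and 40.3 with NC and 14.9 and 14.1 with miR-4711-5p. It was 1.68-fold lower than parent and 2.80-fold lower than NC (adjusted p = 5.88e-05 and 5.74e-06), and NC was 1.67-fold above parent (adjusted p = 0.000432). GCLC, the catalytic subunit of the rate-limiting ligase, was at 37.65 and 39.45 FPKM in parent, 55.3 and 57.8 with NC and 27.8 and 28.85 with miR-4711-5p. Its ratios were 0.735 to parent, 0.501 to NC and 1.47 for NC to parent (adjusted p = 0.000596, 1.77e-05 and 0.00109). GCLM, the modifier subunit of the same ligase, was at 16.4 ± 1.66, 17.4 ± 0.957 and 15.0 ± 0.235 FPKM in parent, NC and miR-4711-5p, and none of its comparisons was called (adjusted p = 0.0693 against NC). Against NC it was called lower with only the 2 groups in the fit (adjusted p = 0.041) and without either parent library (0.0404 and 0.0405). Whether the 2 subunits differed in their response was not tested.

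Among the enzymes that use glutathione, GPX2, the glutathione peroxidase of gut epithelium, was at 242 and 257 FPKM in parent, 271 and 275 with NC and 134 and 142.5 with miR-4711-5p. It was 1.81-fold lower than parent (log2 change -0.85 ± 0.05 SE, adjusted p = 2.58e-05) and 1.98-fold lower than NC (-0.98 ± 0.05, adjusted p = 1.69e-05), and NC was at 1.09 of parent (adjusted p = 0.101), a difference called on equal totals (adjusted p = 0.0206). MGST1, a membrane-bound glutathione transferase, was at 0.814 of parent and 0.812 of NC (adjusted p = 0.00289 and 0.00309). GSR, which regenerates reduced glutathione, was at 43.1 ± 2.02, 42.9 ± 1.90 and 40.0 ± 1.01 FPKM and was not called. In all, 4 of the 6 glutathione genes were lower against each reference. Of 16 other glutathione genes tested, 10 were lower and none higher against parent. Against NC 8 were lower and 1, GPX1, was higher. Of all genes tested, 24.7% were lower and 18.7% higher against parent, and 21.2% and 18.4% against NC.

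The thioredoxin genes split. TXN, the small protein disulfide reductase, was at 676 ± 9.35 FPKM in parent, 677 ± 12.8 with NC and 455 ± 13.9 with miR-4711-5p. The parent and NC libraries overlapped, and miR-4711-5p was at 0.673 and 0.672 of them (adjusted p = 6.01e-05 and 7.03e-05). TXNRD1, the selenoprotein that reduces thioredoxin, was at 62.3 ± 1.70 in parent, 79.5 ± 0.599 with NC and 62.4 ± 0.801 with miR-4711-5p. SRXN1, which repairs over-oxidised peroxiredoxins, was at 57.1 ± 1.40, 70.1 ± 0.566 and 54.8 ± 2.14. For both, NC was above parent (1.28-fold and 1.23-fold) and miR-4711-5p was below NC (0.785 and 0.782), while miR-4711-5p against parent gave no call (adjusted p = 0.977 and 0.356). On equal totals TXNRD1 was called higher against parent (log2 change 0.14, adjusted p = 0.0362). Of the 75-base runs of SRXN1, 90.5% also belong to a readthrough gene that spans it in the annotation used here. Its value may depend on how such reads were assigned, if the authors' annotation held that gene. PRDX1, a peroxiredoxin that removes hydrogen peroxide, was at 943 ± 34.8, 843 ± 16.0 and 778 ± 35.1 FPKM, lower than in parent with miR-4711-5p (0.825, adjusted p = 0.0034) and with NC (0.894, adjusted p = 0.0449). The second of these calls was lost without any 1 of the 6 libraries (adjusted p 0.0635 to 0.198).

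In the supply of NADPH, the 3 pentose phosphate enzymes on the list were lower with miR-4711-5p against both references, beside 15.4% of all genes tested. Of 8 other genes of this role tested, 5 were lower and 2, RPIA and ME3, higher against parent. Against NC 5 were lower and 1, ME3, higher. PGD, which makes NADPH by decarboxylating 6-phosphogluconate, was at 122 and 121 FPKM in parent, 120.2 and 117 with NC and 74.7 and 80.3 with miR-4711-5p. The 4 reference libraries lay close together and both miR-4711-5p libraries lay far below them, at 0.638 of parent and 0.654 of NC (adjusted p = 7.97e-05 and 0.000124). TALDO1 and TKT, the transaldolase and transketolase of the non-oxidative branch, were at 0.719 and 0.790 of parent (adjusted p = 0.000777 and 0.00148) and at 0.760 and 0.848 of NC (adjusted p = 0.00203 and 0.00767). The TKT call against NC was lost without the first miR-4711-5p library (adjusted p = 0.0639). ME1, the cytosolic malic enzyme, differed from these: it was at 19.5 ± 0.555 FPKM in parent, 15.4 ± 0.874 with NC and 18.7 ± 0.00516 with miR-4711-5p. NC was lower than parent (0.787, adjusted p = 0.0078) and miR-4711-5p higher than NC (1.22, adjusted p = 0.00882). Without the first NC library or either miR-4711-5p library, the adjusted p of the latter was 0.0503 to 0.0585, and without the first parent library that of the former was 0.0535.

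HMOX1 was the 1 gene called higher with miR-4711-5p against both references. This heme oxygenase, which frees iron and carbon monoxide from heme, was at 4.37 and 3.72 FPKM in parent, 3.81 and 4.55 with NC and 8.01 and 8.505 with miR-4711-5p. The parent and NC libraries overlapped, and both miR-4711-5p libraries lay above them. The ratio was 2.04 to parent (log2 change 0.88 ± 0.10 SE on the log2(FPKM + 1) scale, adjusted p = 0.00053) and 1.98 to NC (0.84 ± 0.10, adjusted p = 0.000722). The 2 ferritin genes, whose products store iron, were lower instead. FTL, the light chain, was at 3283 ± 155 FPKM in parent, 3861 ± 183 with NC and 2623 ± 88.5 with miR-4711-5p, at 0.799 of parent and 0.679 of NC (adjusted p = 0.0027 and 0.00027). Its rise from parent to NC (1.18-fold, adjusted p = 0.0189) was lost without the second NC library or either parent library (adjusted p 0.0600 to 0.119). FTH1, the heavy chain, was at 1974 ± 34.6, 1960.0 ± 38.2 and 1714 ± 63.7 FPKM, at 0.868 and 0.874 of the references (adjusted p = 0.00745 and 0.00993). Both FTH1 calls were lost without the first miR-4711-5p library (adjusted p = 0.072 and 0.0879), that against parent also without the first parent library (0.0648) and on equal totals (0.176), and that against NC without the second NC library (0.0502). The ratio of FTL to FTH1 was 1.70 and 1.63 in parent, 1.93 and 2.01 with NC and 1.53 in both miR-4711-5p libraries. FTH1 shares 31.5% of its 75-base runs with annotated copies elsewhere, and FTL 9.54%.

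Of the 7 genes for quinones, carbonyls, epoxides and related functions, 5 were lower with miR-4711-5p against each reference. Of all genes tested, 24.7% were lower against parent and 21.2% against NC. NQO1, the 2-electron quinone reductase often read as a gauge of NRF2 activity, was at 135 ± 5.68 FPKM in parent, 155 ± 4.35 with NC and 105 ± 2.43 with miR-4711-5p. It was at 0.781 of parent and 0.678 of NC (adjusted p = 0.00116 and 0.000176). The rise in NC (1.15-fold, adjusted p = 0.0219) was lost without either NC library or the first parent library (adjusted p 0.0537 to 0.104). PIR, an iron-binding nuclear protein, was at 28.8 and 30.7 FPKM in parent, 38.05 and 38.4 with NC and 20.7 and 21.4 with miR-4711-5p, in the order of the AKR1C genes and without overlap. Its ratios were 0.707 to parent, 0.550 to NC and 1.28 for NC to parent (adjusted p = 0.000417, 3.69e-05 and 0.00453).

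CBR1, a carbonyl reductase of prostaglandins and anthracyclines, was at 77.6 and 66.6 FPKM in parent, 59.3 and 56.9 with NC and 46.9 and 49.05 with miR-4711-5p. The steps ran downward from parent over NC to miR-4711-5p, at 0.666 of parent and 0.826 of NC (adjusted p = 0.000913 and 0.024), and NC was at 0.806 of parent (adjusted p = 0.024). The call against NC was lost without any 1 of the 4 libraries compared (adjusted p 0.0656 to 0.135), and that of NC against parent without any 1 library other than the second parent library (0.0519 to 0.110). Of the 75-base runs of CBR1, 27.1% also belong to an overlapping annotated gene. CBR3, its relative, had a low level: 6.80 and 6.28 FPKM in parent, 6.86 and 5.24 with NC and 3.62 and 4.43 with miR-4711-5p. Both miR-4711-5p libraries lay below the others (0.616 of parent and 0.666 of NC, adjusted p = 0.00909 and 0.0215). The call against parent was lost without the first miR-4711-5p or first parent library (adjusted p = 0.0736 and 0.0661), and that against NC without the first library of either group (0.139 and 0.111).

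EPHX1, the microsomal epoxide hydrolase, was at 0.792 of parent (adjusted p = 0.0121) and 0.709 of NC (adjusted p = 0.00261), and the first of these calls was lost without the first miR-4711-5p library or either parent library (adjusted p 0.0596 to 0.0905). UGDH, which makes the sugar for glucuronidation, was at 28.2 ± 2.12, 27.2 ± 0.221 and 26.6 ± 0.620 FPKM in parent, NC and miR-4711-5p and was called nowhere. OSGIN1, an oxidative stress-induced growth inhibitor, was at 6.19 ± 0.348, 8.03 ± 0.862 and 8.26 ± 0.735 FPKM. It was higher than parent with miR-4711-5p (1.33-fold, adjusted p = 0.0167) and with NC (1.30-fold, adjusted p = 0.0385), and the 2 treated groups overlapped. The first call was lost without the first miR-4711-5p or second parent library (adjusted p = 0.121 and 0.095), and the second without any 1 of the 6 libraries (0.0520 to 0.177).

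The 2 tested export pumps were lower with miR-4711-5p against both references, beside 15.4% of all genes tested. ABCC3, a basolateral exporter of bile salts and glucuronides, was at 18.4 and 19.4 FPKM in parent, 25.2 and 26.7 with NC and 15.3 in both libraries with miR-4711-5p. Its ratios were 0.811 to parent, 0.591 to NC and 1.37 for NC to parent (adjusted p = 0.00561, 0.000102 and 0.00281), and the first was not called on equal totals (log2 change -0.15, adjusted p = 0.0650). ABCC1, the exporter of glutathione conjugates, was at 40.8 ± 1.30, 41.4 ± 0.442 and 29.0 ± 0.533 FPKM. It was at 0.709 of parent and 0.700 of NC (adjusted p = 0.000266 and 0.00026), and the ratio of NC to parent was 1.01 (adjusted p = 0.789).

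**Figure D4:**
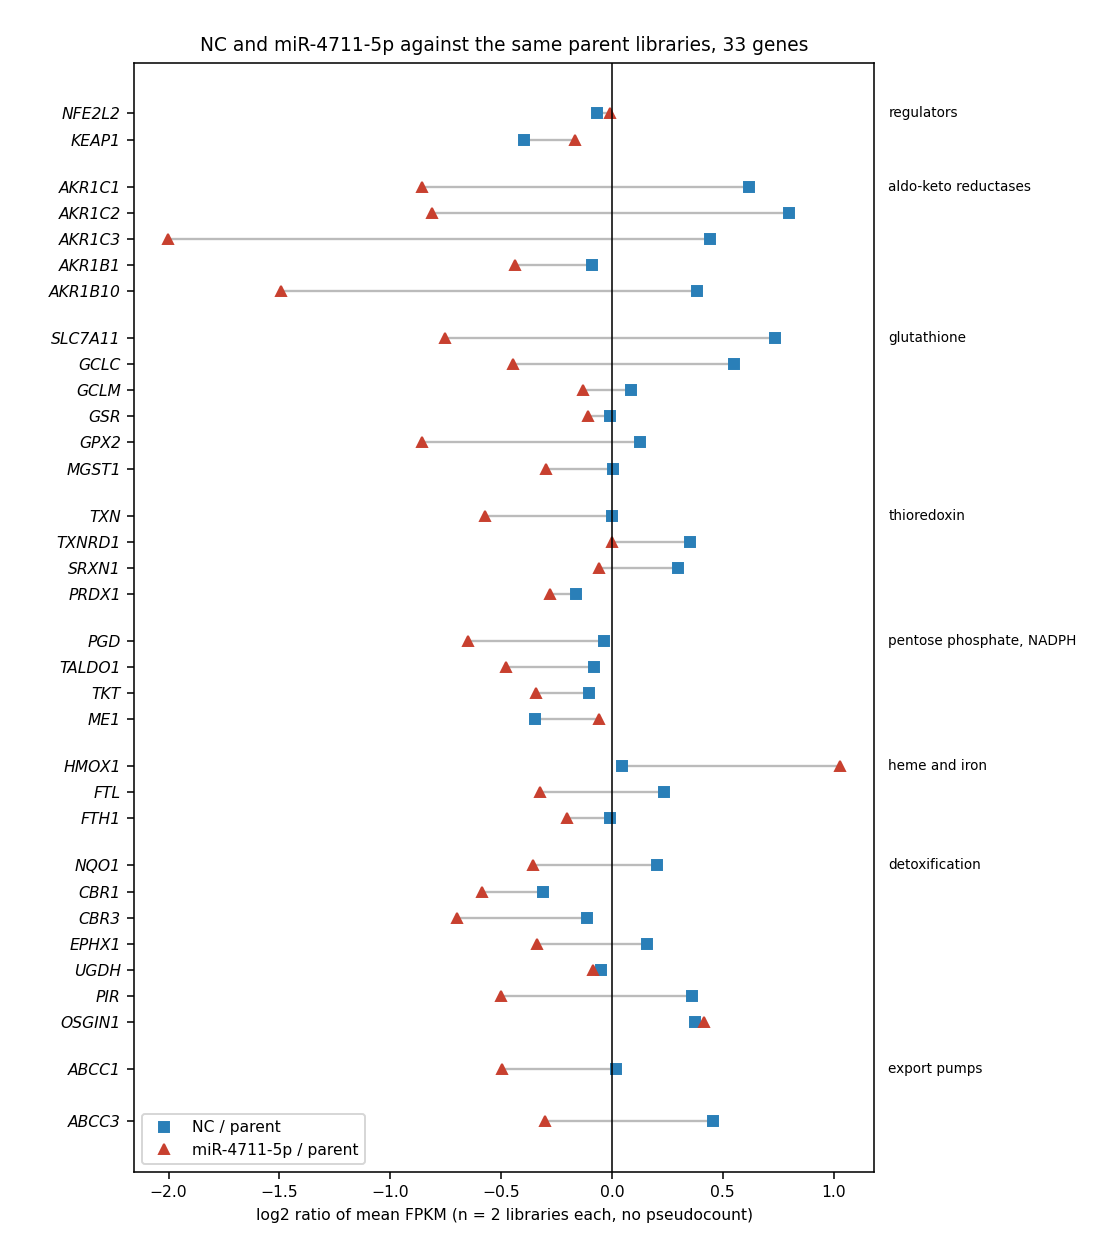
Log2 ratio of mean FPKM (no pseudocount) of NC to parent (blue squares) and of miR-4711-5p to parent (red triangles) for the 33 tested genes, n = 2 libraries per group, with a grey line joining the values of 1 gene. Both ratios use the same parent libraries. For AKR1C1, AKR1C2, AKR1C3, AKR1B10, SLC7A11 and GCLC the squares lie right of 0 and the triangles left of it, while HMOX1 has its triangle at the far right.

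The 82 other genes of the same pathways were written from general knowledge. Of 70 tested, 32 were lower (45.7%) and 9 higher (12.9%) against parent, beside 24.7% and 18.7% of all genes. Against NC 28 were lower (40%) and 14 higher (20%), beside 21.2% and 18.4%. In NC against parent 15 were lower (21.4%) and 13 higher (18.6%), beside 15.1% and 12.1%. The median log2 changes were -0.16, -0.08 and -0.04 in that order. For roles not broken out above, lower and higher calls against parent were 2 and 0 of 4 aldo-keto reductases and 4 and 1 of 9 thioredoxin genes. They were 1 and 0 of 6 heme and iron genes, 7 and 1 of 11 detoxification genes and 2 and 0 of 4 export pumps. Against NC the same pairs were 2 and 0, 2 and 4, 1 and 1, 6 and 1, and 3 and 1. On equal totals the split of all 70 genes against parent was 21 lower and 21 higher, beside 14.8% and 33.3% of all genes. Those past 1.5-fold against both references were AKR1B15 above and 4 more, all lower. ADH7, an alcohol and retinol dehydrogenase, was at 2.75 and 4.13 FPKM in parent, 2.11 and 3.14 with NC, and 0.707 and 0.760 with miR-4711-5p. ABCG2, a xenobiotic exporter, was at 1.93 and 2.30, 3.18 and 3.51, and 1.32 and 1.34, again with NC above parent (adjusted p = 0.0162). ALDH7A1 and CBR4, an aldehyde dehydrogenase and a quinone reductase, were at 0.553 and 0.630 of parent and at 0.600 and 0.601 of NC.

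Leaving out each library in turn, and changing the scale, the filter, the pseudocount and the model but adding no ratio limit, left 16 genes called lower against both parent and NC every time: AKR1C1, AKR1C2, AKR1C3, AKR1B1, AKR1B10, SLC7A11, GCLC, GPX2, MGST1, TXN, PGD, TALDO1, FTL, NQO1, PIR and ABCC1. HMOX1 was called higher against both each time. In the main fit 15.4% of all genes tested were lower against both references. How many of them held under every alternative was not counted. For NC against parent, 10 of the 17 calls held in the same way: AKR1C1, AKR1C2, AKR1C3, SLC7A11, GCLC, TXNRD1, SRXN1, PIR and ABCC3 higher, and KEAP1 lower.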

How the data were processed

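The 6 BxPC-3 libraries were strand-specific mRNA libraries, read by the authors as single ends of 75 bases on a HiSeq instrument. TopHat with Bowtie2 and SAMtools placed the reads on hg19, and the authors deposited FPKM per gene symbol from Cuffnorm. The submitters' processing notes name TopHat2 2.1.1, Bowtie2 2.3.5.1, SAMtools 1.2, Cuffdiff and Cufflinks 2.2.1, and the versions in the study's methods differ for the first 3. The gene annotation, the strand option and the treatment of reads with several matches are not given in the sources used here, and such reads could shift related genes. Depth in reads is unknown.

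Groups were read from the sample titles. No count model suits FPKM, and none was fitted. From FPKM on, log2(FPKM + 1) of the 12040 genes whose mean reached 1 FPKM was fitted with limma 3.58.1 in R 4.3.3 (all 3 groups in a fit by lmFit, then eBayes with a trend, 3 residual and 4.15 prior degrees of freedom), with Benjamini-Hochberg adjustment at 0.05 over all genes tested. Ratios are of mean FPKM without a pseudocount. Sums, sequences and figures were made with Python 3.11.15, numpy 2.4.6, pandas 2.3.3 and matplotlib 3.10.9. The fit was tested on simulated data.

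The 34 genes, the lists of other pathway genes and of cell markers, and the rules below were chosen with earlier results of these data known. Values of every library are given for NFE2L2, KEAP1 and the 13 genes past 1.5-fold in any comparison, 15 genes in all; other genes of the same pathways are named where they were called and past 1.5-fold against both references, and any further gene was named after its values were seen. Seed sites and the longer promoter window used GENCODE v44 lifted to GRCh37, and the mature microRNA and shorter promoter windows RefSeq on GRCh38.p14. Shared 75-base runs were exact matches of the canonical transcript to any other annotated gene's transcripts. Alternatives were another pseudocount, other filters, other scales, a fit without a trend, of 2 groups only or with the replicate number, a ratio limit, and each library left out.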

Additional observations from a re-analysis of the deposited data

How the results depend on the processing

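The number of the 33 genes called moved by over 1.5 times only where a ratio of at least 1.5 was required as well, which left 10 against parent, 12 against NC and 3 for NC against parent, and for NC against parent without single libraries. Leaving out each library gave 21 to 25, 21 to 28 and 10 to 14 calls in the same order, the lowest of these last without the first parent library (10) and the second NC library (11). For the other pathway genes the ratio limit left 10, 8 and 4, the range without single libraries was 29 to 41, 27 to 41 and 9 to 19, and NC against parent gave 16 calls with only those 2 groups in the fit and 18 without a trend, against 28. The cause of these moves was not tested, other than fewer samples in the smaller fits. Equal totals and the second set of median-of-ratios factors, over all genes above 0, were chosen after seeing the data.

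Signs turned only for differences that were not called. With median-of-ratios factors NFE2L2 against parent was 0.01 on the log2 scale, and GSR and FTH1 in NC against parent were 0.01 and 0.00. On equal totals, against parent, NFE2L2 was 0.13, GCLM 0.01, GSR 0.03, SRXN1 0.08, ME1 0.08 and UGDH 0.06, UGDH against NC was 0.02, and in NC against parent NFE2L2 was 0.02, GSR 0.08, PGD 0.05, TALDO1 0.00, FTH1 0.08 and UGDH 0.04. Without single libraries NFE2L2 ran from -0.10 to 0.08 against parent and from -0.04 to 0.15 against NC, TXNRD1 from -0.03 to 0.03 against parent and OSGIN1 from -0.06 to 0.14 against NC. In NC against parent the ranges were -0.01 to 0.18 for GCLM, -0.05 to 0.04 for GSR, -0.05 to 0.06 for MGST1, -0.02 to 0.02 for TXN, -0.07 to 0.14 for HMOX1, -0.03 to 0.01 for FTH1, -0.27 to 0.06 for CBR3, -0.12 to 0.03 for UGDH and -0.01 to 0.05 for ABCC1.

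A pseudocount of 0.1 and a filter at 5 FPKM ended no call of the 33 genes. Without a filter 11 calls were lost over the 3 comparisons (those of KEAP1, FTH1, OSGIN1, CBR1, CBR3, AKR1B10, PRDX1 and FTL), without a trend 6, on equal totals 6, with 2 groups in the fit 4, with the replicate block 3 (KEAP1, PRDX1 and OSGIN1) and with median-of-ratios factors 2.

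Libraries with the same replicate number did not deviate together (correlations of their deviations 0.061, 0.00301 and -0.00892 over 12040 genes), so the numbers were not taken as pairs. A fit with the replicate number as a block called 25, 27 and 15 of the 33 genes, beside 26, 27 and 17 without it. Of the 6 seed-site genes, 2 remained when only 8mers counted. Depth in reads is unknown, which limits what can be said of CBR3, HMOX1 and OSGIN1, the lowest of the tested genes.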
